A study of Mus musculus with 12 samples.

Results

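RNA of muscle stem cells transfected with a Six2 plasmid was compared between cells sorted as GFP-positive and cells sorted as GFP-negative. A gene was kept when it had at least 10 normalized counts in at least 3 of the 6 libraries of these groups, which held for 13937 of the 23586 genes in the table. The genes just inside this limit were Irx2, Il17rb and Paqr5, whose third-highest value was 10.23, and those just outside were Myocd, Cyp2ab1 and Tmem269, at 9.996. Both groups came from mice with the Pax3nLacZ-IRES-GFP allele, in which GFP is made where the Pax3 locus is active, so that the sort separates PAX3-positive from PAX3-negative cells. After sorting, both were grown in medium with 20% FCS and basic FGF (4 ng/mL). They were then transfected by Lipofectamine with 2 µg of pCR3-Six2, an expression plasmid holding the mouse Six2 cDNA. The GFP-positive and GFP-negative libraries given empty pCR3 under the same conditions serve here as a counterpart. They also entered the same fit, so the estimate of spread behind the SIX2-label p-values rests in part on them. Each of the 4 groups had 3 libraries from at least 50000 cells a sample. The labels give neither the age of the mice nor whether libraries of a group were separate animals or cultures, so each p-value speaks only of the spread between these libraries. The comparison addresses how the PAX3-positive and PAX3-negative populations differ when SIX2 is added.

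PAX3, a paired-box factor, drives muscle progenitors of the embryo and stays on in a subset of adult satellite cells, and SIX2 is a homeobox transcription factor. The genes that differed here belong mostly to the interferon response. In that pathway, RNA or DNA in the cytoplasm is bound by sensors such as MDA5, the product of Ifih1, and interferon is made. Interferon binds its receptor, receptor-bound kinases such as TYK2 activate transcription factors, and these bind with IRF9 to a promoter sequence called the interferon-stimulated response element (ISRE). The genes it switches on restrict viruses, recruit immune cells through chemokines and load peptides on MHC class I for T cells. Muscle progenitors, like most cell types, can mount this response.

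The plasmid and GFP labels were first read at Six2 and Pax3. Six2 had 22.8, 23.7 and 19.2 normalized counts in GFP-negative and 28.6, 23.4 and 6.51 in GFP-positive libraries labelled SIX2, and the groups overlapped. Libraries labelled control had 4.28, 15.9 and 24.4 in GFP-negative and 5.35, 13.3 and 3.37 in GFP-positive cells, a range that overlaps that of the SIX2 label, so Six2 RNA does not show the plasmid. Pax3, the gene whose reporter was sorted, had 19.3, 16.5 and 13.8 against 12.5, 3.90 and 14.7, and its log2 difference, GFP-positive minus GFP-negative, was −0.78 with a standard error (SE) of 0.41 (limma-trend adjusted p = 0.423). Under the control label Pax3 was higher, at 72.8, 68.2 and 73.2 against 94.1, 62.5 and 59.9, and did not separate the GFP groups there either (log2 difference −0.01, limma-trend adjusted p = 0.990). Under the SIX2 label both genes stood close to the detection limit, with 100 and 32 reads of Six2 and 75 and 18 reads of Pax3 over the 3 libraries of each group. Neither gene thus checks the labels, and each direction given here is a direction between libraries labelled GFP-positive and GFP-negative. The authors' RT-qPCR of Six2 was not analysed here.

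The GFP-negative SIX2 libraries held 34048869 to 40182810 reads and the GFP-positive ones 12632428 to 15492340, so that 1 read was worth 0.601 to 0.714 and 1.63 to 1.95 normalized counts. The number of genes with at least 10 normalized counts was nonetheless close, at 13799 to 13910 and 13713 to 13850, and mitochondrially encoded genes took 4.12 to 4.71% and 3.84 to 4.19% of reads. Across the tested genes, Pearson's r on the log2 scale was 0.979 to 0.982 between GFP-negative libraries, 0.965 to 0.976 between GFP-positive libraries and 0.969 to 0.978 between the groups. Normalized counts are not divided by gene length, so values are compared between libraries and not between genes.

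By limma-trend few genes differed between the sorted populations labelled SIX2, and nearly all of them were lower in GFP-positive cells. Of the 13937 genes, 26 (0.187%) passed an adjusted p of 0.05 in limma-trend, 24 lower (0.172%) and 2 higher (0.0144%) in GFP-positive libraries. The number and the share of higher genes depended on the test and on 1 library: DESeq2 on the recovered reads called 287 genes with 188 higher, limma with library weights 67 with 29 higher, and the fit without GFP-negative SIX2 replicate 1 called 75 with 46 higher. Among the 24 were Oasl1, Ifit1, Isg15 and Ifih1 of the antiviral response, the chemokines Ccl5 and Cxcl10, and B2m, Tapbp and H2-D1 of MHC class I. The 16 that differed by more than 2-fold (0.115%) were all lower. The median log2 difference was −1.92 over the 26 genes and −0.0142 over all genes tested. The 26 were chosen by this same difference, so a gap between the medians follows from the choice. For each of the 26, the 3 values of one group lay apart from the 3 of the other, as they did for 17.5% of all genes tested (8.27% lower and 9.21% higher in GFP-positive libraries). Of the 13937 genes, 37 reached the limit of 10 through GFP-negative libraries alone, Ccl5, Tgtp2, Cmpk2 and Ifit3b among them, and 23 through GFP-positive libraries alone, none of them called. For such genes the filter itself set the groups apart. In bulk RNA, fewer cells making a transcript and less transcript per cell cannot be told apart.

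**Figure D1:**
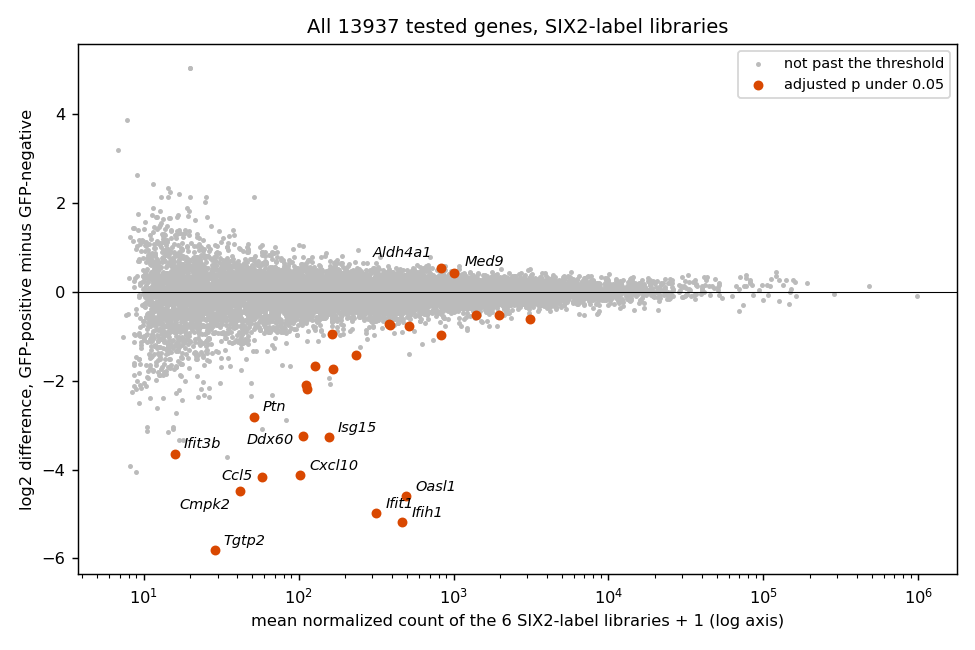
Log2 difference, GFP-positive minus GFP-negative, against the mean normalized count plus 1 of the 6 libraries labelled SIX2 (log axis), 1 point per tested gene. The 26 genes past the threshold are in orange, 24 of them below 0, and Oasl1, Ifit1 and Ifih1 stand near −5 at levels where other genes lie close to 0.

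The smallest p-values were those of 3 antiviral effectors. Oasl1 (ENSMUSG00000041827.15, GRCm38 chromosome 5, 114923240 to 114937915, plus strand), an oligoadenylate synthetase-like protein that restrains translation of Irf7, had 922, 953 and 964 normalized counts in GFP-negative and 44.7, 44.8 and 27.7 in GFP-positive libraries. The mean of the GFP-positive group was 4.13% of that of the GFP-negative group, and the log2 difference was −4.60 ± 0.26 (SE throughout, limma-trend adjusted p = 7.42e-07). Exons of Oasl1 overlap the antisense gene Gm13822, and without strand the reads of both cannot be told apart. Ifit1 (ENSMUSG00000034459.8, chromosome 19, 34640871 to 34650009, plus strand), which binds viral RNA that lacks the host's cap methylation, had 585, 594 and 665 against 10.7, 25.3 and 22.8. Its difference was −4.98 ± 0.28 (limma-trend adjusted p = 7.42e-07). All 3 GFP-negative libraries stood far above every GFP-positive library for both genes. Isg15 (ENSMUSG00000035692.7, chromosome 4, 156199424 to 156200818, minus strand), a ubiquitin-like modifier of viral and host proteins, had 294, 303 and 250 against 33.9, 25.3 and 26.1, a difference of −3.27 ± 0.24 (limma-trend adjusted p = 1.14e-05).

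Sensors and regulators of the response were among the lower genes as well. Ifih1 (ENSMUSG00000026896.14, chromosome 2, 62595798 to 62646255, minus strand), the sensor of long double-stranded RNA, had 899, 940 and 874 in GFP-negative and 10.7, 35.1 and 35.8 in GFP-positive libraries. Its difference was −5.18 ± 0.42 (limma-trend adjusted p = 3.58e-05), and the GFP-positive values did not approach the GFP-negative ones. The helicase gene Ddx60 (ENSMUSG00000037921.15, chromosome 8, 61928087 to 62038244, plus strand) had 157, 216 and 198 against 25.0, 11.7 and 22.8, a difference of −3.25 ± 0.30 (adjusted p = 1.20e-04 in the same fit). Irf7, the transcription factor that amplifies interferon production, had 188, 204 and 183 against 39.3, 58.5 and 89.6, a difference of −1.68 ± 0.26 (limma-trend adjusted p = 0.0169). Its exons overlap Phrf1 on the other strand. The 3 GFP-positive values of Irf7 spread more than 2-fold among themselves and all lay below the GFP-negative ones.

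Chemokine transcripts were close to the floor in GFP-positive libraries. Ccl5 had 116, 104 and 108 normalized counts in GFP-negative libraries and 3.57, 5.85 and 6.51 in GFP-positive libraries, the latter from 9 reads in all (log2 difference −4.16 ± 0.37, limma-trend adjusted p = 7.88e-05). Cxcl10, which draws activated T cells, had 183, 183 and 212 against 8.93, 7.79 and 14.7, from 18 reads in the GFP-positive group (−4.12 ± 0.46, limma-trend adjusted p = 8.00e-04), and overlaps Art3 on the other strand. The groups of Cxcl10 did not overlap. Ccl5 passed the filter through GFP-negative libraries alone, so its groups had to lie apart.

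Interferon-induced GTPases, a membrane protein and further effectors were lower as well. Tgtp2, a GTPase of the immunity-related family, had 47.8, 60.6 and 57.7 in GFP-negative libraries and no read in any GFP-positive library. Against a floor of 3 reads over the GFP-positive group, it was at least 31.3-fold lower (limma-trend adjusted p = 0.00139). Its copy Tgtp1 is nearly identical, so reads may be split between them. Irgm1 of the same family had 296, 321 and 410 against 114, 144 and 119 (log2 difference −1.43, adjusted p = 0.0219 in limma-trend). Ifitm3, which blocks fusion of viral membranes, had 1031, 1130 and 1131 against 691, 489 and 523, at 51.7% of the GFP-negative mean (−0.96, limma-trend adjusted p = 0.00343). Apol9a, whose copy Apol9b shares sequence with it, had 167, 194 and 194 against 30.4, 39.0 and 53.7 (−2.18, limma-trend adjusted p = 0.00139). Samd9l, an antiviral factor that restrains growth, had 166, 140 and 235 against 42.9, 29.2 and 52.1 (−2.10, limma-trend adjusted p = 0.00636). In none of these 5 genes did a GFP-positive library reach the lowest GFP-negative one. Tgtp2 passed the filter through GFP-negative libraries alone, so for it this had to hold.

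The remaining called members of the interferon list rested on few reads or small differences. Cmpk2, a nucleotide kinase beside the antiviral gene Rsad2, had 56.4, 89.6 and 87.2 against 0, 5.85 and 4.88, from 6 reads in the GFP-positive group (−4.49 ± 0.62, limma-trend adjusted p = 0.0053). Ifit3b had 25.0, 34.9 and 24.1 against 3.57, 0 and 1.63. Its 3 reads in the GFP-positive group give a ratio of 15.7 between the groups, with a counting interval of 5.26 to 77.2, and its near-identical copy Ifit3 makes the split of reads uncertain (limma-trend adjusted p = 0.0329). Ifi27 had 1389, 1770 and 1771 against 1161, 1171 and 1102 (−0.51 ± 0.09, limma-trend adjusted p = 0.0442), and 1 of its GFP-negative libraries stood closer to the GFP-positive group than to the other two. The call was lost under 15 of 27 alternatives for Ifi27, 14 of 25 for Ifit3b and 3 of 25 for Cmpk2.

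**Figure D2:**
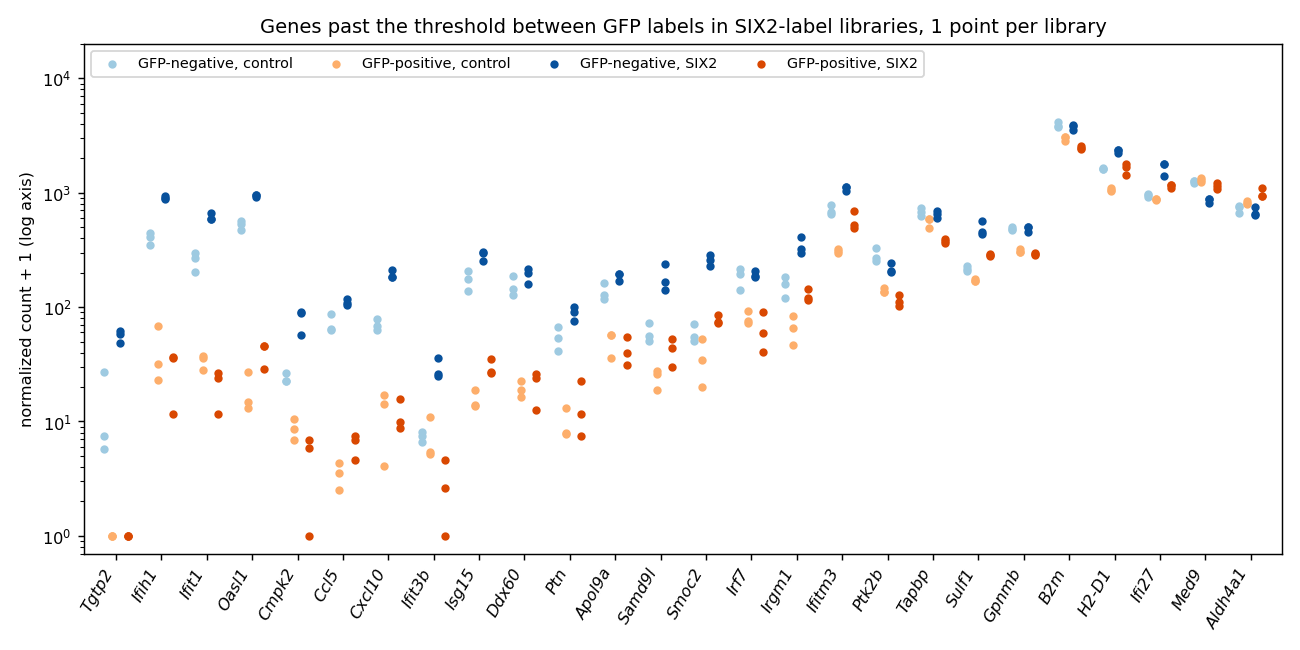
Normalized counts plus 1 (log axis) of the 26 genes past the threshold, 1 point per library, for the 4 groups, ordered by the log2 difference in libraries labelled SIX2. From Tgtp2 to Ifi27 the 3 dark orange points (GFP-positive, SIX2) lie below the 3 dark blue points (GFP-negative, SIX2), and for Med9 and Aldh4a1 they lie above.

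Of the 47 genes listed for the interferon response, 46 were in the table and 41 were tested. In limma-trend 14 of the 41 were lower and none higher in GFP-positive libraries, 31 were lower at an unadjusted p under 0.05 (6.04% of all genes tested were), and 38 had a negative difference. The list's median log2 difference was −1.43, and it stayed −1.43 with the 1 gene at 0 in all GFP-positive libraries set to its floor. Of the 41, 8 reached the limit of 10 through GFP-negative libraries alone (Ccl5, Cmpk2, Gbp2, Ifi44, Ifit3, Ifit3b, Parp14 and Usp18) and so had to be lower in GFP-positive libraries. Among the other 33, 11 were called lower and none higher, 23 were lower at an unadjusted p under 0.05, 30 had a negative difference, and the median was −0.90. Summed over all 41, the 8 that had to be lower included, GFP-negative libraries held 10620 to 11340 normalized counts and GFP-positive libraries 5267 to 5412. Rsad2, the radical enzyme viperin, had 144, 132 and 161 against 28.6, 17.5 and 13.03 without passing the threshold (−2.89 ± 0.59, limma-trend adjusted p = 0.0772). Ifi44 had 12.1, 18.4 and 16.8 in GFP-negative libraries and no read in the GFP-positive ones (limma-trend adjusted p = 0.0601). Gbp7 (−2.34), Oasl2 (−2.33) and Xaf1 (−0.91) had 3 GFP-negative values above all GFP-positive values, with limma-trend adjusted p from 0.0813 to 0.186.

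Most upstream genes of the pathway did not pass the threshold. A list of 31 ligands, receptors, kinases, sensors, transcription factors, adaptors and inhibitors was drawn up after the values had been seen. Of these, 25 were tested, and Irf7 (−1.68) and Ifih1 (−5.18), described above, were the 2 that passed it. The ligands on the list, Ifnb1 and Ifng among them, had no values under these symbols, so their transcripts could not be compared. The receptor chain Ifnar1 had 1040, 968 and 987 against 1032, 890 and 988, and the groups overlapped. The other chain, Ifnar2, had 328, 327 and 285 against 414, 351 and 399 (0.31 ± 0.12, limma-trend adjusted p = 0.280), and the kinase gene Tyk2 609, 555 and 538 against 659, 762 and 759 (0.36 ± 0.12, adjusted p = 0.241 in limma-trend). Both were higher in each GFP-positive than in each GFP-negative library, opposite to the called genes, without passing the threshold. Of the factors that bind the ISRE, Stat2 overlapped between the groups (0.15), and Irf9 had 97.8, 107 and 109 against 76.8, 66.3 and 47.2 (−0.74 ± 0.25, limma-trend adjusted p = 0.228). The RNA sensor gene Ddx58 (RIG-I) had 133, 99.5 and 103 against 60.7, 72.1 and 48.8 (−0.88 ± 0.24, limma-trend adjusted p = 0.134), and the feedback inhibitor Usp18 27.8, 17.8 and 29.5 against 1.79, 0 and 9.77 (−3.03 ± 0.81, limma-trend adjusted p = 0.130).

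The ISRE core was searched in the promoters because it is the element through which these genes are known to respond. RefSeq (GRCm38.p6) gave the 250 bases before and 50 after the start for 21 of the 26 genes, and the motif sought on either strand was a pair of GAAA half-sites with 2 bases of any kind between them. It was found for 11 of the 19 lower genes with an entry (57.9%), among 355 of 10337 tested genes with an entry (3.43%), and for neither of the 2 higher genes. The lower genes are mostly of the interferon response, so a share above that of all tested genes is no independent result. The 11 include Tgtp2 and Ifit3b, which reached the filter through GFP-negative libraries alone. The gamma-activated site core TTCNNNGAA was found for 2 of the 19 (10.5%) and for 8.13% of tested genes. The 150 bases before the start are shown for 6 genes, read 5′ to 3′ on the strand of the gene, with ISRE cores in capitals. They are Oasl1 (chr5:114923090-114923239, plus strand), whose window had no match, Ifit1 (chr19:34640739-34640888, plus), Isg15 (chr4:156200819-156200968, minus), Ddx60 (chr8:61927937-61928086, plus), B2m (chr2:122147537-122147686, plus) and Tgtp2 (chr11:49064213-49064362, minus).
Oasl1: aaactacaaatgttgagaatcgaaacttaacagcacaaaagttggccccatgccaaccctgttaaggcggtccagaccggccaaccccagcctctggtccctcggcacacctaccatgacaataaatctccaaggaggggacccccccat
Ifit1: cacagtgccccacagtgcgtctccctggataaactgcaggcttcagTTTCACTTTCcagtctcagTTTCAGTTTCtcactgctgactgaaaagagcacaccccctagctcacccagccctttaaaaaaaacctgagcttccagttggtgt
Isg15: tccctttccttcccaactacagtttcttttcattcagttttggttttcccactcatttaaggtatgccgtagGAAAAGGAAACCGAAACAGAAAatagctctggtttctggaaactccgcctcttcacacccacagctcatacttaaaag
Ddx60: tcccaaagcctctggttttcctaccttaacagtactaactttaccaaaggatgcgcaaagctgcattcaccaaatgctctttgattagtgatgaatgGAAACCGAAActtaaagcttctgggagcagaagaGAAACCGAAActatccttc
B2m: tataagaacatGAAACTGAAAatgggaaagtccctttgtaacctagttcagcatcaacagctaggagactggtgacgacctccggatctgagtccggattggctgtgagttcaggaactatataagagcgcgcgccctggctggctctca
Tgtp2: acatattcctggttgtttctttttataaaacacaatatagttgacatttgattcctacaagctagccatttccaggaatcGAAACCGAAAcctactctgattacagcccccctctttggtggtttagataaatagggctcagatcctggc
The first bases of the cores lie 104 and 85 bases before the start in Ifit1, 78, 72 and 66 in Isg15, where 3 cores overlap, 53 and 19 in Ddx60, 139 in B2m and 70 in Tgtp2. Outside these 6, matches lay in the windows of Ifih1, Cxcl10, Apol9a, Ifitm3, Irgm1 and Ifit3b. Those of Ifih1 and Ifitm3 lay after the start. The windows of Tapbp, H2-D1, Irf7, Cmpk2, Samd9l, Ptn and Gpnmb held no match to these letters. A match of letters does not show that a factor binds there.

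Genes of MHC class I presentation were lower in GFP-positive libraries by smaller amounts. B2m (ENSMUSG00000060802.8, chromosome 2, 122147686 to 122153083, plus strand), the light chain shared by all class I molecules, had 3548, 3853 and 3909 in GFP-negative and 2485, 2539 and 2395 in GFP-positive libraries. Its mean fell to 65.6% of the GFP-negative mean (−0.61 ± 0.07, limma-trend adjusted p = 8.00e-04), with no overlap. Tapbp, which encodes tapasin, the chaperone that brings class I to the peptide transporter, had 601, 654 and 689 against 364, 380 and 391 (−0.77 ± 0.10, limma-trend adjusted p = 0.00481). Its exons overlap Gm19412 and Zbtb22. H2-D1, a class I heavy chain whose sequence is shared with other heavy chain genes, had 2239, 2371 and 2361 against 1768, 1415 and 1687 (−0.52 ± 0.08, limma-trend adjusted p = 0.015). These were 3 of 14 tested members of the list (0.172% of all genes tested were called lower), none was higher, and the list's median was −0.20. The other heavy chain gene H2-K1 had 1814, 1809 and 1644 against 1611, 1567 and 1576 (−0.15, limma-trend adjusted p = 0.390), and the peptide transporter gene Tap1 overlapped between the groups (−0.34). Psmb8, a subunit of the immunoproteasome, had 24.3, 49.4 and 33.7 against 7.15, 15.6 and 17.9 (−1.37, limma-trend adjusted p = 0.289).

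**Figure D3:**
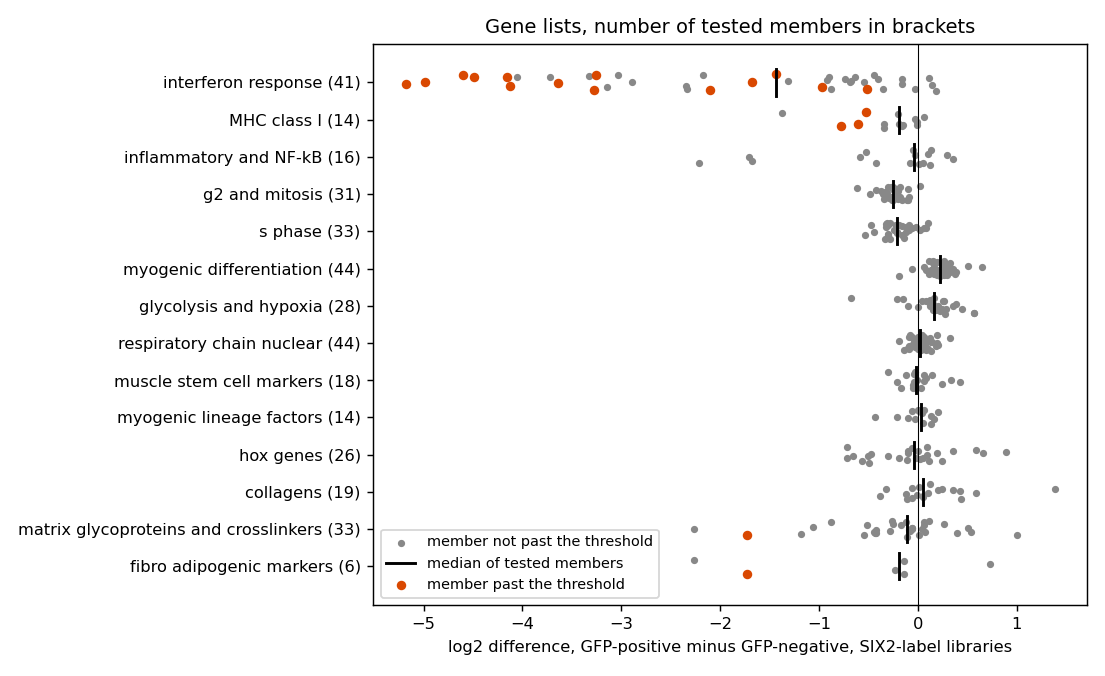
Log2 difference, GFP-positive minus GFP-negative, of the tested members of 14 gene lists in libraries labelled SIX2, with each list's median as a black bar and members past the threshold in orange. The interferon list has a median of −1.43 and 14 orange points, the MHC class I list 3, and the lists of muscle differentiation and the cell cycle lie narrowly to the right and left of 0 with none. Of the interferon list, 8 members reached the filter through GFP-negative libraries alone and had to be lower. The others have a median of −0.90 and 11 calls.

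Outside both lists, growth factor, matrix and membrane genes were also lower. Ptn, the heparin-binding growth factor pleiotrophin, had 89.2, 74.4 and 99.8 in GFP-negative and 10.7, 21.4 and 6.51 in GFP-positive libraries (−2.81 ± 0.42, limma-trend adjusted p = 0.00965). Smoc2, a secreted calcium-binding matrix protein, had 283, 230 and 259 against 73.2, 72.1 and 84.7 (−1.73 ± 0.30, limma-trend adjusted p = 0.0328). Sulf1, a sulfatase that edits heparan sulfate, had 438, 568 and 453 against 293, 286 and 282 (−0.75 ± 0.13, limma-trend adjusted p = 0.0283). None of the 3 overlapped between the groups. Gpnmb, a transmembrane glycoprotein, had 449, 496 and 497 against 282, 290 and 296 (−0.73 ± 0.10, limma-trend adjusted p = 0.0046). Ptk2b, the tyrosine kinase PYK2, had 243, 205 and 203 against 127, 101 and 109 (−0.94 ± 0.16, limma-trend adjusted p = 0.0258). Both were lower in every GFP-positive library. The call was lost under 12 of 27 alternatives for Smoc2, 11 for Sulf1, 6 for Ptk2b, 4 for Ptn and 2 for Gpnmb.

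Smoc2 is also a marker of fibro-adipogenic progenitors, and it was the 1 called member of the 6 tested markers of those cells. Their summed level was 3588 to 3990 in GFP-negative and 3130 to 3322 in GFP-positive libraries. Of these markers 5 had a negative and 1 a positive difference, with a median of −0.19. Dcn and Pi16, which were not tested, had at most 1.98 normalized counts in any of the 6 libraries. Of 4 tested immune markers none passed, 3 had a negative and 1 a positive difference, and their sum was 91.6 to 117 against 82.2 to 124. Cd14 was lower in each GFP-positive than in each GFP-negative library (−1.09, limma-trend adjusted p = 0.390). Itgam had 47.1, 6.59 and 58.3 against 44.7, 37.0 and 79.8 and overlapped between the groups (0.90, limma-trend adjusted p = 0.539). Lyz2 and Cd3e, which were not tested, were at 0 in all 6 libraries. Of 2 tested endothelial markers none passed and both had a positive difference, with sums of 48.1 to 92.9 against 79.9 to 141. They were Vwf (0.68) and Egfl7 (0.47), and each overlapped between the groups. Erg, which was not tested, was at 0. Whether cells of these types were present was not tested. The part of the fibro-adipogenic markers in the difference of Smoc2 was not tested.

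The 2 higher genes differed by less than 1.5-fold. Med9, a subunit of the Mediator complex, had 880, 884 and 816 in GFP-negative and 1075, 1218 and 1156 in GFP-positive libraries (0.42 ± 0.07, limma-trend adjusted p = 0.0442). Aldh4a1, a mitochondrial enzyme of proline breakdown whose exons overlap Gm21969, had 745, 651 and 641 against 1095, 931 and 931 (0.54 ± 0.10, limma-trend adjusted p = 0.0442). Both groups of values were apart, but both calls were lost without any 1 of several libraries, with limma-trend adjusted p = 0.245 for Med9 and 0.247 for Aldh4a1 without GFP-negative SIX2 replicate 3. With quantile scaling, 9 of 37 calls were higher (24.3%), against 2 of 26 (7.69%) here, and with the trend on GC content removed 6 of 31 (19.4%).

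The next genes on the higher side missed the threshold and are given as values. Gapdh, the glycolytic dehydrogenase, had 109320, 105360 and 91315 against 146310, 129340 and 140600 (0.45 ± 0.09, limma-trend adjusted p = 0.0601). Myl4, a myosin light chain of developing muscle, had 64282, 62449 and 59976 against 79108, 72762 and 82102 (0.32 ± 0.06, limma-trend adjusted p = 0.0688). Both were higher in each GFP-positive library. Rab3a, a GTPase of vesicle release, Acss2, which makes acetyl-CoA from acetate, and Tmem132a, a transmembrane protein, had differences of 0.51, 0.43 and 0.50. Coro6, an actin-binding coronin, Prkag3, a regulatory subunit of AMP-activated kinase in muscle, and Coq8a, of coenzyme Q synthesis, had 0.31, 0.41 and 0.35. Their limma-trend adjusted p lay between 0.0601 and 0.0724.

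Muscle differentiation genes leaned the same way as Myl4 without a call. Of the 44 tested, 42 had a positive difference, 31 were higher at an unadjusted p under 0.05 (7.31% of all genes tested were), none passed the adjusted threshold, and the median was 0.23. The summed level was 2247000 to 2470000 in GFP-negative and 2573000 to 2943000 in GFP-positive libraries. Myoglobin (Mb) had 72275, 66386 and 61922 against 82240, 83468 and 95255 (0.38 ± 0.08, limma-trend adjusted p = 0.0724). Cardiac and slow troponin C (Tnnc1) had 71034, 69304 and 68088 against 86197, 80521 and 90204 (0.30 ± 0.07, limma-trend adjusted p = 0.0831), and desmin (Des) had a difference of 0.35. DESeq2 on the recovered reads called 13 of the 44 higher (1.56% of its genes were), limma with library weights 3 (0.208%) and edgeR none. In glycolysis and the hypoxia response, 24 of 28 genes had a positive difference, with a median of 0.16, 12 were higher at an unadjusted p under 0.05, and DESeq2 called 7.

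Cell cycle genes leaned the other way, again without a call. Of 31 genes of G2 and mitosis, 30 had a negative difference, 9 were lower at an unadjusted p under 0.05 (6.04% of all genes tested were), and the median was −0.25. Mki67, a coat protein of mitotic chromosomes and proliferation marker, had 1191, 1012 and 1157 against 638, 813 and 747 (−0.62 ± 0.14, limma-trend adjusted p = 0.0983), and the motor gene Cenpe 751, 899 and 832 against 616, 616 and 615 (−0.42 ± 0.12, limma-trend adjusted p = 0.156). Of 33 S phase genes, 29 were negative, with 10 at an unadjusted p under 0.05 and a median of −0.21. The replicative helicase subunit Mcm6 had 4111, 4001 and 3982 against 3262, 3332 and 3252 (−0.30, limma-trend adjusted p = 0.162). In each of these 3 genes the groups were apart. DESeq2 called 2 genes lower in each of these lists (0.822% of its genes were).

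No factor of the muscle lineage passed the threshold. Pax7, the satellite cell factor related to PAX3, had 161, 161 and 164 against 159, 166 and 184 (0.06 ± 0.20, limma-trend adjusted p = 0.922). Myod1 had a difference of 0.00 ± 0.07 and Myog, the factor of terminal differentiation, of 0.14 ± 0.06 (limma-trend adjusted p = 0.989 and 0.355). Myf5, an early myogenic factor, had 3472, 3997 and 4657 against 3221, 3153 and 2610 (−0.43 ± 0.11, limma-trend adjusted p = 0.130), with no overlap. The groups were also apart for Myog, Myf6 (0.13) and Mef2c, each higher in GFP-positive libraries. Mef2c, a partner of the myogenic factors, had 15059, 14591 and 13914 against 16483, 17381 and 16466 (0.21 ± 0.05, limma-trend adjusted p = 0.120), and passed by DESeq2 (adjusted p = 0.0251) and with the GC trend removed (adjusted p = 0.0312). Of 14 tested lineage factors and 18 stem cell markers, none passed the threshold, with medians of 0.03 and −0.02. None of 26 Hox genes passed it either. In all, 4 of 39 lists had a member past the threshold and 35 had none. Smoc2 was the only such member of the matrix glycoprotein and fibro-adipogenic lists.

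The same comparison in libraries labelled control, which share no library with those labelled SIX2, gave 519 genes past the threshold (3.72%), 142 higher (1.02%) and 377 lower (2.71%) in GFP-positive libraries. Of the 26 genes, 18 were also called under the control label, all 18 lower in both. They are 69.2% of the calls under the SIX2 label and 3.47% of those under the control label. The sign was the same for all 26. The control-label differences were known when the genes were chosen and are no independent support. The tests under both labels also share an estimate of the spread. Sequencing depth went the other way under the control label, with 12438885 to 33151990 reads in GFP-negative and 31295165 to 47299937 in GFP-positive libraries. Oasl1 had 565, 532 and 468 against 13.8, 12.2 and 26.2 there, a log2 difference of −4.90 beside −4.60. Across all 13937 genes both sets of differences had a Pearson r of 0.160 and a Spearman rho of 0.061, over genes, which are not independent replicates.

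The 8 genes called under the SIX2 label alone were Tapbp, Cmpk2, Sulf1, Smoc2, Ifit3b, Ifi27, Med9 and Aldh4a1. Tapbp had 735, 622 and 681 against 584, 491 and 584 under the control label (−0.30, limma-trend adjusted p = 0.131), and Ifit3b 6.43, 7.14 and 5.63 against 9.94, 4.43 and 4.22. That alone does not show that their differences depend on the plasmid label, so the difference of differences was tested. No gene passed this test in limma-trend (0 of 13937, smallest adjusted p = 0.0739), and 2397 had an unadjusted p under 0.05 (17.2%). By edgeR none passed and by DESeq2 554. Ifit1 had 266, 297 and 200 against 36.7, 27.1 and 34.6 in control libraries, a difference of −2.91 beside −4.98. The interaction of −2.08 did not pass the threshold (limma-trend adjusted p = 0.0739), and it uses the differences on which the 26 genes were chosen.

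**Figure D4:**
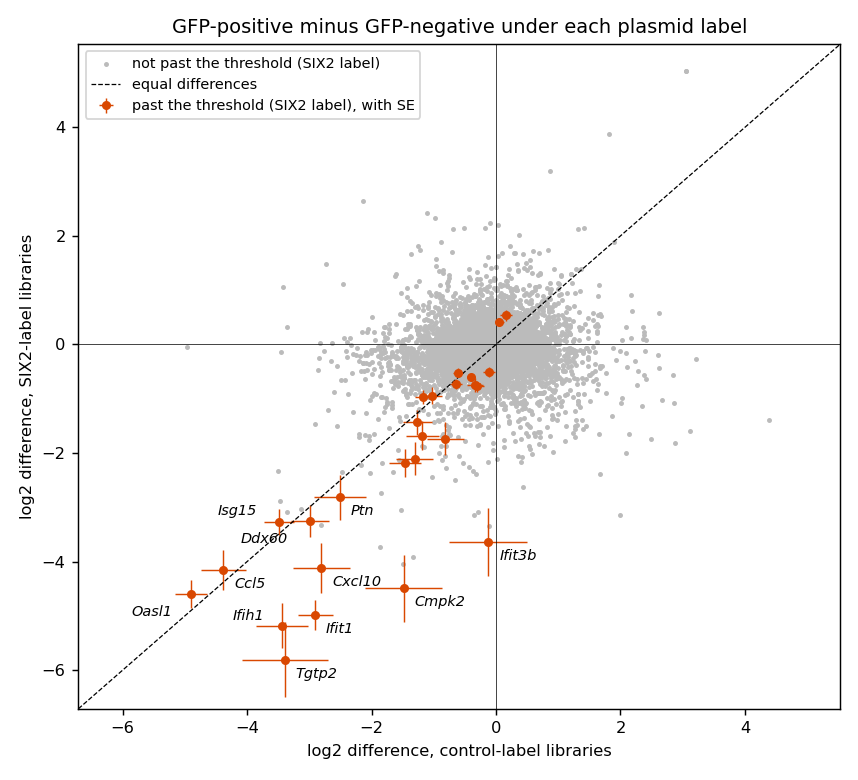
Log2 difference, GFP-positive minus GFP-negative, in libraries labelled SIX2 (vertical axis) against those labelled control (horizontal axis), 1 point per tested gene, with SE bars on the 26 genes past the threshold under the SIX2 label. All 26 lie in the lower left or upper right quadrant, Oasl1 and Isg15 near the line of equal differences and Ifit1, Ifih1 and Cmpk2 below it.

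Most of the 26 genes were also called by other tests. Among the 29 genes called by edgeR, the 67 with library weights and the 287 by DESeq2 were 26, 26 and 23 of them. The fit on the 6 SIX2-label libraries alone kept fewer: it called 19 genes, all lower, 15 of them among the 26. Without GFP-negative SIX2 replicate 2 or 3, 14 and 13 genes were called. After all libraries were thinned to the depth of the smallest, 18 genes were called, 17 of them among the 26. The lower members of the interferon list numbered 8 to 18 over these settings, with 9 and 8 without GFP-negative SIX2 replicate 2 or 3. Oasl1, Ifit1, Isg15, Ifih1, Ccl5, Ddx60, B2m, Cxcl10, Apol9a, Tgtp2, Ifitm3 and Tapbp passed under every alternative that gave them an adjusted p.

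**Figure D5:**
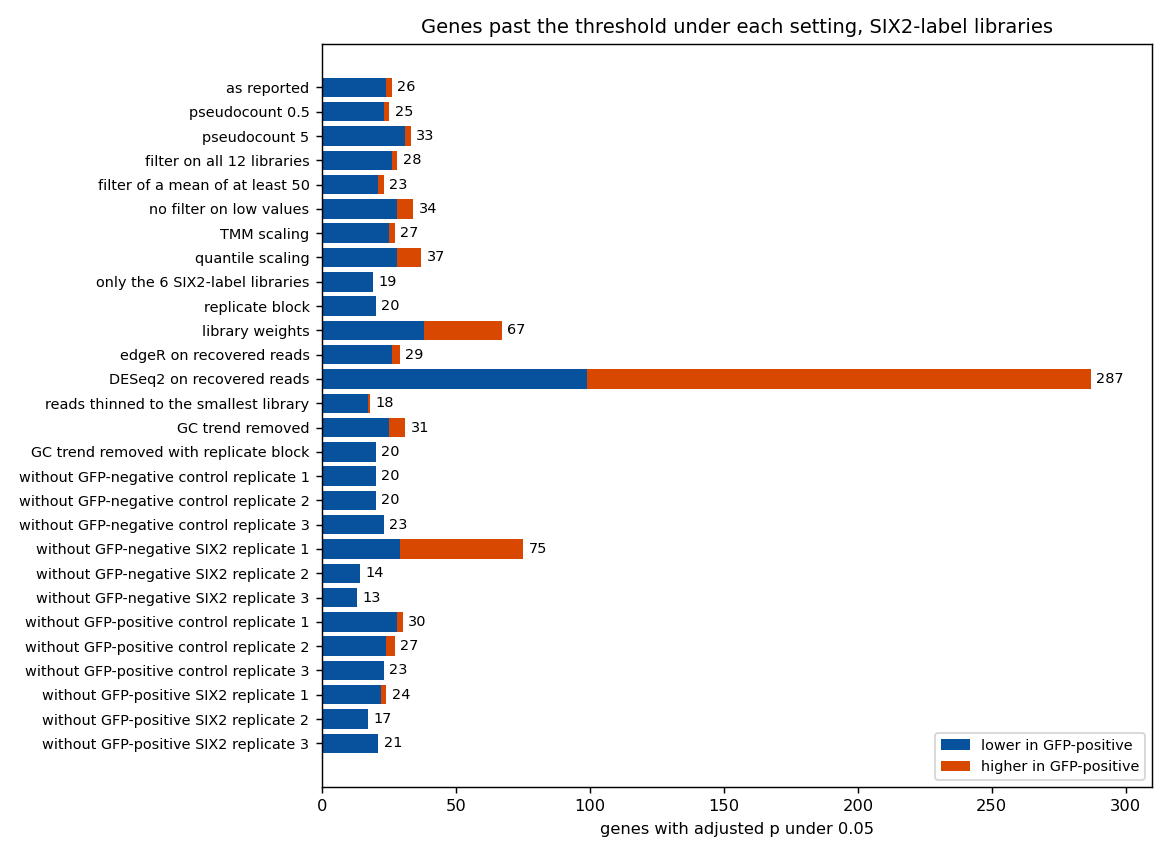
Number of genes past the threshold between GFP labels in libraries labelled SIX2 under each setting, split into lower (blue) and higher (orange) in GFP-positive libraries. Most settings give 13 to 37 genes, most of them lower. Higher genes number 9 of 37 with quantile scaling and 6 of 31 with the GC trend removed. Without a filter on low values they number 6 of 34. DESeq2, library weights and the fit without GFP-negative SIX2 replicate 1 give 287, 67 and 75 with many higher genes.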

How the data were processed

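The authors deposited 1 table of normalized counts, a linear signal per gene obtained by dividing each library by a size factor. STAR 2.7.11a, RSEM 1.3.3 and DESeq2 1.42.0 on GRCm38 were used per the submitters' processing notes, with settings not given in the sources used here. Libraries followed SMART-Seq2 with Tn5 fragmentation and PCR, per the labels' protocols, and no strand is recorded. Each library's values were whole multiples of 1 step (100% within a tolerance of 1e-04), which gave back 12438885 to 47299937 reads a library. No pair of replicates was closer than sampling noise (chi-square per degree of freedom 7.18 to 45.3).

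Groups follow the sample titles. Genes with at least 10 in at least 3 of the 6 SIX2-label libraries were taken as log2 of the normalized count plus 1 and tested with limma-trend (limma 3.58.1 in R 4.3.3), in 1 fit of 4 group means over 12 libraries, two-sided, with Benjamini-Hochberg adjustment over 13937 genes and a threshold of 0.05. This scale understates the change of low genes. edgeR 4.0.16 and DESeq2 1.42.0 were run on the recovered reads as alternatives, and adjusted p values DESeq2 left empty were not counted as calls. Positions are from GENCODE (99.8% of identifiers matched without versions), and promoter sequences from RefSeq (GRCm38.p6). The members and the 39 gene lists were chosen with earlier results of these data known. Genes named are Six2, Pax3, Pax7, Myf5, Myod1 and Myog, the called genes (up to 15 a direction with the largest difference whose higher group averaged 50 or more, or the smallest p as values where fewer than 10 passed) and up to 4 called members of each list or 2 as values. Further called genes and list members, the pathway list and the motif searches were chosen after their values were seen. Figures were drawn with matplotlib 3.10.9.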

Additional observations from a re-analysis of the deposited data

How the results depend on the processing

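Of the 26 genes called, 12 stayed past the threshold under each alternative that gave them an adjusted p, and 14 lost it under at least 1, with no change of direction in any of the 26. Genes called between GFP labels in SIX2-label libraries numbered 67 with library weights (29 higher, 38 lower, 26 over 2-fold) and 287 by DESeq2 (188, 99 and 25). Higher genes numbered 6 without a filter on low values and with the GC trend removed, 9 with quantile scaling, 1 after thinning, and 0 with the SIX2-label libraries alone, with the replicate block and with the GC trend removed together with the block. Leaving out each library in turn gave 13 to 75 called genes, 0 to 46 higher, 13 to 29 lower and 9 to 20 over 2-fold. The count was 17 without GFP-positive SIX2 replicate 2.

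The interaction had 314 genes with library weights, 554 by DESeq2, 1 after thinning, and 0 to 171 leaving out each library, with 171 without GFP-positive control replicate 3 and 57 without GFP-positive SIX2 replicate 3. Under the control label 336 genes passed without a filter, 300 with the replicate block, 321 with the block and GC trend, 1551 with weights, 1078 by DESeq2 and 72 to 848 leaving out each library (72 without GFP-negative control replicate 1, 848 without GFP-positive control replicate 3). The causes were not tested.

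The replicate numbers did not pair the libraries (correlations of deviations −0.13, −0.0287 and −0.0985 between same-numbered SIX2-label libraries), and the replicate block left 20 genes called, all lower.

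Differences near 0 changed sign. Myog was −0.012 with quantile scaling. Leaving out each library gave Six2 −0.76 to 0.23 (above 0 without GFP-positive SIX2 replicate 3). Ifnar1 was 0.051 after thinning and −0.089 to 0.017 leaving out each library. Pax7 was −0.11 after thinning and −0.0089 with the GC trend removed, with and without the block. Myod1 was −0.032 with quantile scaling, −0.027 with weights, −0.078 with the GC trend removed, with and without the block, and −0.043 to 0.062 leaving out each library. In the GFP-positive libraries 1 read was worth up to 1.95 normalized counts, so differences of genes with a few reads there, such as Ifit3b and Cmpk2, carry wide counting error.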

Other observations

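Of 33 tested genes of matrix glycoproteins and crosslinkers, 22 had a negative and 11 a positive difference between GFP-positive and GFP-negative libraries labelled SIX2. At an unadjusted p under 0.05, 9 were lower (6.04% of all genes tested were) and 1 higher (7.31%), and the median was −0.11, with Smoc2 the 1 called member. Spp1, which encodes the secreted phosphoprotein osteopontin, had 76335, 79544 and 85051 normalized counts in GFP-negative and 64179, 60973 and 53930 in GFP-positive libraries (log2 difference −0.43, limma-trend adjusted p = 0.0601). Fbn1, the microfibril protein fibrillin, had 750, 705 and 699 against 363, 360 and 456 (−0.88, limma-trend adjusted p = 0.0724). The summed level of the list was 158000 to 160300 against 133400 to 140600, and the groups were apart. Spp1 alone held 76335 to 85051 of it in GFP-negative and 53930 to 64179 in GFP-positive libraries. The sum thus largely follows Spp1, which was not called, and does not show a decrease across the list.

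Of 16 tested inflammatory and NF-kB genes none passed, 9 had a negative and 7 a positive difference, and the median was −0.04, with sums of 8310 to 9214 against 8563 to 9243. The monocyte chemokine Ccl2 had 28.6, 28.3 and 22.3 against 5.36, 1.95 and 9.77 and reached the limit of 10 through GFP-negative libraries alone (limma-trend adjusted p = 0.114), and the prostaglandin synthase gene Ptgs2 550, 418 and 549 against 261, 355 and 407 (−0.58, limma-trend adjusted p = 0.153). Nfkb2 (0.29) and Relb (0.36), subunits of NF-kB, overlapped between the groups. These genes were named after their values were seen. Among satellite cell surface markers the integrin chain Itga7 had 29603, 27922 and 21801 against 31642, 31253 and 36331 (0.33, limma-trend adjusted p = 0.147), higher in each GFP-positive library.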
